A study of Schizosaccharomyces pombe with 3 samples.

Results

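The genes nbl1, spc19, mis6, mis18, spc7, sgo1 and tea2 of Schizosaccharomyces pombe act in kinetochore assembly, chromosome segregation or microtubule transport. They were taken by gene name, by protein match in the deposited tables (spc19) or by gene identifier, and make up 7 of the 444 genes for which the tables hold values. Wild type cells of strain 972h- were grown to mid-log phase in synthetic dextrose medium with 3% glucose (T1), 5% glucose (T2) or 8% glucose (T3). RNAs of 3 cultures were pooled for each concentration and polyadenylated RNA was sequenced as 1 library, so no difference given here has a replicate check and no test between conditions was possible. Expression is given as the authors' estimated counts of fragments per gene and as FPKM (fragments per kilobase of gene and 1000000 fragments). Folds were computed from FPKM, and the 95% interval behind each is a Clopper-Pearson (exact) one on the counts of both libraries that covers counting error only. The relation of counts to FPKM in the deposited genes implies totals of 5744764 fragments in T1, 5888032 in T2 and 5819044 in T3. These are fitted scaling totals and not the read totals that the study reports. In bulk RNA, more cells in the stage that uses a gene and more RNA per cell cannot be told apart. Only genes that the authors marked as different are in the tables, and "called" here means listed in one, so a gene outside them has no value here, and the 26 entries left unnamed may hide list members.

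The kinetochore is the protein assembly that forms on centromeric chromatin and holds each chromosome to the microtubules of the spindle. Its inner layer sits on nucleosomes that carry the histone H3 variant CENP-A, and its outer layer binds microtubules. The chromosome passenger complex carries the Aurora kinase, which releases faulty attachments so that sister chromatids can be attached again from opposite poles, and shugoshin protects the cohesion between sister centromeres in meiosis. In fission yeast the DASH complex supports the attachment of chromosomes to spindle microtubules, and kinesins move cargo along them.

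Each of the 7 genes was higher in T3 than in T1, by 2.06-fold to 20.1-fold, and 5 of them by at least 4-fold. Of the 367 genes in the table of T3 and T1, 64.0% were higher in T3, and 10.4% were higher by at least 4-fold. The latter were 38 of the 235 higher genes. With a pseudocount of 1 FPKM, 2 of the 7 genes, nbl1 and spc19, remained at least 4-fold higher. The 10.4% was taken without a pseudocount, and the share of all genes with one is not given here. The genes had been picked with these results known, 5 of them by the study itself (nbl1, spc19, mis6, mis18 and tea2), so their common direction is a description and not independent evidence. The T3 levels lay between 8.58 and 27.3 FPKM with a median of 14.4, against 0.48 to 13.2 FPKM with a median of 4.64 in T1. Over the 233 genes higher in T3 with counts in both libraries the median T3 level was 23.7 FPKM, which sgo1 and spc19 exceeded. Together the 7 genes had 927 counts in T3 and 305 in T1, or 159 and 53.1 counts per 1000000 fragments of the fitted totals.

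**Figure D1:**
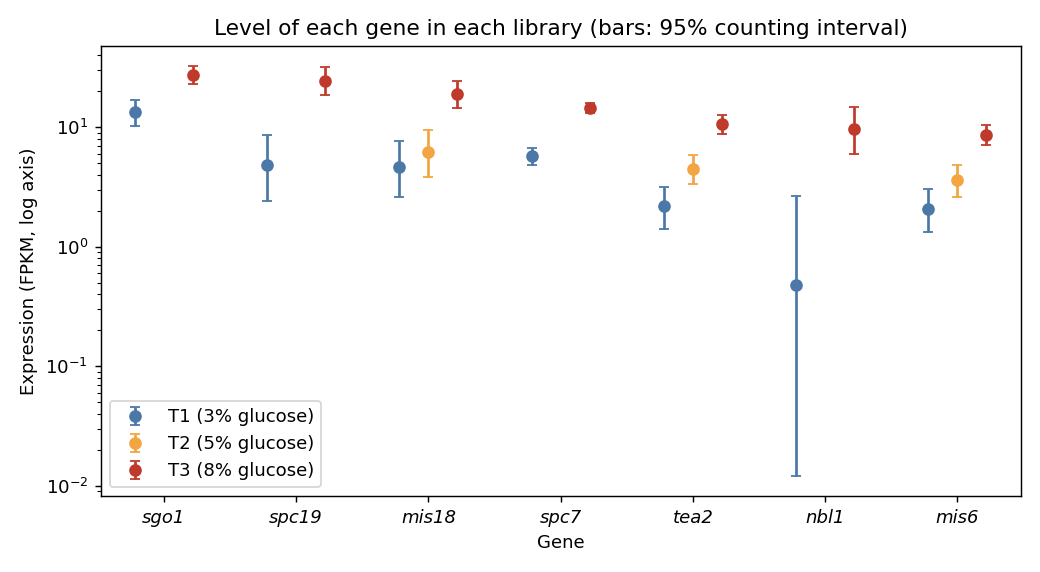
Expression of the 7 genes in FPKM on a log axis, as 1 point per library for T1 (3% glucose), T2 (5% glucose) and T3 (8% glucose), with bars for the 95% counting interval. T3 lies above T1 for every gene without overlap of the bars, T2 is shown for the 3 genes that have a value there, and the widest bar is that of nbl1 in T1, which rests on 1 count. Every gene shown was called between T3 and T1, so the lack of overlap is largely a condition of being shown. The share of all called genes without overlap is not given here.

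The gene nbl1 (SPBC725.12, chromosome II) encodes the borealin homolog of the chromosome passenger complex. It had 21 counts in T3 and 1 count in T1, which correspond to 9.64 FPKM in T3 and 0.48 FPKM in T1. The ratio was 20.1-fold (95% interval 3.23 to 831), and its width comes from the lone count in T1. This was the fifth largest increase among the 233 genes higher in T3 with counts in both libraries, but the lower end of its interval is close to the lower ends found for tea2 (3.16) and mis6 (2.67), so its rank is poorly fixed. Of the other members of the complex, ark1 (the Aurora kinase), bir1 (the survivin homolog) and pic1 (the INCENP homolog) were not found in any of the 3 tables. The 444 genes with values stand beside 5124 annotated protein-coding genes, so this absence does not set nbl1 apart.

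For spc19 (SPCC1223.15c, chromosome III), a subunit of the DASH complex, 58 counts in T3 stood against 11 in T1. Its level was 24.5 FPKM in T3 (95% interval 18.6 to 31.6) and 4.83 FPKM in T1 (2.41 to 8.64), a 5.07-fold increase (2.63 to 10.7). The intervals of the libraries did not overlap, which is largely a condition of spc19 being called. None of the other 10 DASH genes examined was found in the table of T3 and T1. Its higher entries correspond to only 4.59% of the protein-coding genes and its lower entries to 2.58%, so this absence does not set spc19 apart.

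The centromere assembly genes mis18 and mis6 had values at all 3 glucose concentrations. The gene mis18 (SPCC970.12, chromosome III) encodes a factor that is needed to bring CENP-A to the centromere. It had 15, 21 and 63 counts in T1, T2 and T3, or 4.64, 6.19 and 18.9 FPKM. T3 was 4.07-fold above T1 (95% interval 2.29 to 7.70) and 3.05-fold above T2 (1.84 to 5.27), whereas T2 stood at 1.33 times T1 (0.656 to 2.78), an interval that includes no difference.

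The gene mis6 (SPAC1687.20c, chromosome I) encodes the CENP-I ortholog of the inner kinetochore, which also takes part in CENP-A loading. Its counts were 25, 45 and 106 in T1, T2 and T3, which correspond to 2.06, 3.59 and 8.58 FPKM. The T3 level was 4.17-fold above T1 (95% interval 2.67 to 6.72) and 2.39-fold above T2 (1.67 to 3.47). T2 was 1.74-fold above T1 (1.05 to 2.97), but the 99% interval included no difference and mis6 was not in the table of T2 and T1.

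Among the outer kinetochore genes, spc7 (SPCC1020.02, chromosome III), the homolog of human KNL1 that recruits spindle checkpoint proteins, had the most counts of the 7 genes. It had 405 counts in T3 and 158 in T1, or 14.4 and 5.71 FPKM. The increase was 2.53-fold with the narrowest interval of the set (2.10 to 3.06).

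Expression of sgo1 (SPBP35G2.03c, chromosome II), the gene of the meiotic shugoshin, was the highest per length in both libraries. It had 146 counts in T3 and 69 in T1, which gives 27.3 FPKM in T3 (95% interval 23.1 to 32.2) and 13.2 FPKM in T1 (10.3 to 16.8). Its 2.06-fold increase (1.54 to 2.79) was the smallest, and sgo1 was the only one of the 7 genes whose interval reached below 2-fold. With a 99% interval spc7 and mis18 did so too. For the other 6 genes the 95% interval lay wholly above 2-fold, as it did for 33.9% of the 363 genes of the table with counts in both libraries. These were 123 of the 233 such genes that were higher in T3. The paralog sgo2, which acts in mitosis as well, was not found in the tables, as most protein-coding genes were not.

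The gene tea2 (SPBC1604.20c, chromosome II) encodes a kinesin that carries cargo to the growing ends of interphase microtubules and so acts in cell polarity more than at the kinetochore. It had 26, 55 and 128 counts in T1, T2 and T3, or 2.17, 4.46 and 10.5 FPKM. T3 was 4.85-fold above T1 (95% interval 3.16 to 7.70) and 2.36-fold above T2 (1.71 to 3.30). T2 was 2.06-fold above T1 (1.27 to 3.41), yet tea2 was not among the genes called between these libraries. Its cargo and partner genes tip1, mal3, tea1 and tea4 were not found in the tables. Most protein-coding genes were not, so this does not set tea2 apart.

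**Figure D2:**
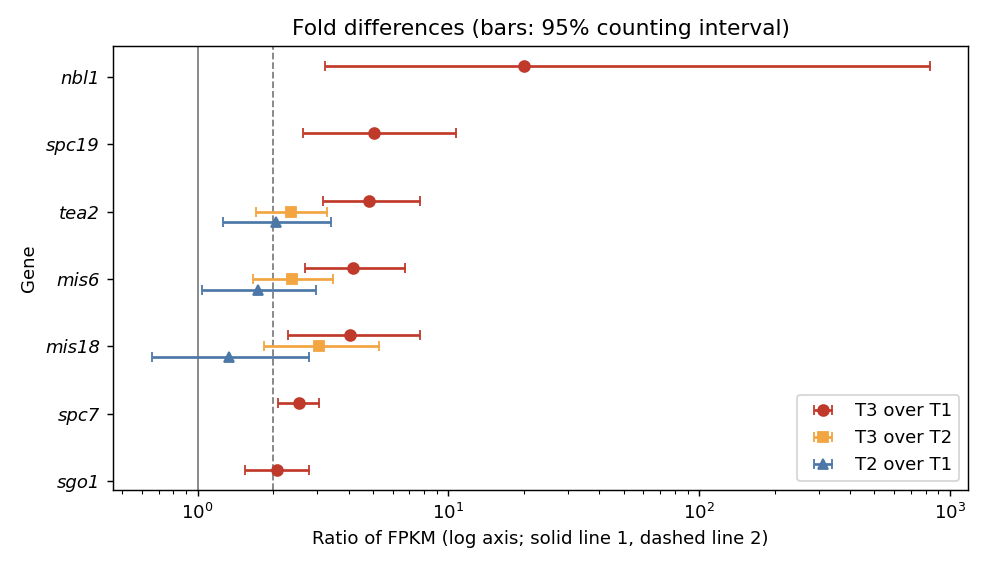
Ratio of FPKM values on a log axis for each of the 7 genes, with T3 over T1 as circles, T3 over T2 as squares and T2 over T1 as triangles, and bars for the 95% counting interval. For T3 over T1 the bars of 6 genes lie wholly above 2-fold and that of sgo1 begins at 1.54, and for T2 over T1 the bar of mis18 includes 1.

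For the 3 genes with a value at 5% glucose, T2 lay between T1 and T3. On the log2 scale, the part of the T1 to T3 increase already reached in T2 was 45.6% for tea2, 38.9% for mis6 and 20.5% for mis18. The counting intervals of the T2 and T3 levels did not overlap for any of the 3, and those of T2 and T1 overlapped for mis6 and mis18 but not for tea2. These genes have a T2 value because the authors called them higher in T3 than in T2, so that the T2 level below T3 was a condition of having a value. Of the 181 genes called between T3 and T2, 44.2% were higher in T3. The 4 genes nbl1, spc19, spc7 and sgo1 were in neither table with a T2 library, and their level at 5% glucose was not analysed here. Both ratios of a gene to T3 use the same T3 library. None of the 7 genes was in the table of T2 and T1, in which 70.1% of 87 genes were higher in T2.

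The order of levels shifted between the libraries. In T3 it was sgo1, spc19, mis18, spc7, tea2, nbl1 and mis6, and only spc7 (14.4 FPKM) and tea2 (10.5 FPKM) were neighbours whose intervals did not overlap. In T1 the order was sgo1, spc7, spc19, mis18, tea2, mis6 and nbl1, and only sgo1 (13.2 FPKM) was set apart from its neighbour spc7 (5.71 FPKM). Thus spc7 stood next to sgo1 in T1 but below spc19 and mis18 in T3, although its level did not differ from that of mis18 beyond counting error in either library.

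The sizes of the increases were compared between the genes as ratios of their folds, with an exact conditional interval for each of the 21 pairs and no adjustment for their number. The interval excluded 1 for 9 pairs, all of which set spc7 or sgo1 against another gene. A fold is known only for called genes, and a gene scarce in T1 needs a large fold to be called. The lowest log2 ratio of called higher genes was 1.28 at 1 to 26 T1 counts, the range of the other 5 genes. At 69 to 158 T1 counts, the range of sgo1 and spc7, it was 1.01. The calling rule therefore bears on these 9 pairs, which are no separate evidence of a difference between the genes. The fold of tea2 was above that of sgo1, whose fold was 0.426 times that of tea2 (95% interval 0.248 to 0.733), and the fold of mis6 was 1.65 times that of spc7 (1.02 to 2.77). Among nbl1, spc19, tea2, mis6 and mis18 no pair differed beyond counting error. The interval for nbl1 over tea2, for example, ran from 0.624 to 183, which leaves room for a large difference. Between spc7 and sgo1 the ratio was 1.22 (0.847 to 1.72).

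The increases were read against other genes of like abundance. The 7 genes had 1 to 158 counts in T1, and of the 152 genes of the table in that range 86.2% were higher in T3, whereas of the 210 genes with more T1 counts 47.1% were. Of the genes with 21 to 405 counts in T3, the range of the 7 genes there, 70.8% were higher. The fewest T1 counts of any entry lower in T3 were 19.25, in a mis15 model whose reads were divided with another mis15 model. All 29 genes with fewer counts, nbl1, spc19 and mis18 among them, were higher. At such T1 counts the table therefore holds no gene of the other direction to set beside these 3 genes.

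Among the called genes the sizes also moved with abundance. In the T1 range of the 5 genes with at least 4-fold increases (1 to 26 counts), the 34 genes higher in T3, these 5 included, had a median log2 ratio of 2.10 and a lowest of 1.28. The log2 ratios were 2.03 for mis18, 2.06 for mis6, 2.28 for tea2, 2.34 for spc19 and 4.33 for nbl1. In the range of sgo1 and spc7 (69 to 158 counts) the median over 44 higher genes, again with both included, was 1.21, beside 1.05 for sgo1 and 1.34 for spc7. The genes other than nbl1 differed from the median of their range by -0.16 (sgo1) to 0.24 (spc19), and nbl1, with its lone count, was 2.23 above it. Only called genes enter these medians, and a gene scarce in T1 can be called only if it is higher in T3. The calling rule therefore bears on the medians, and nearness to them is no separate evidence. Over all 233 higher genes with counts in both libraries the median log2 ratio was 1.34, with medians of 131 counts in T1 and 2018 bases in length, beside 2.06, 25 counts and 970 bases for the 7 genes.

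**Figure D3:**
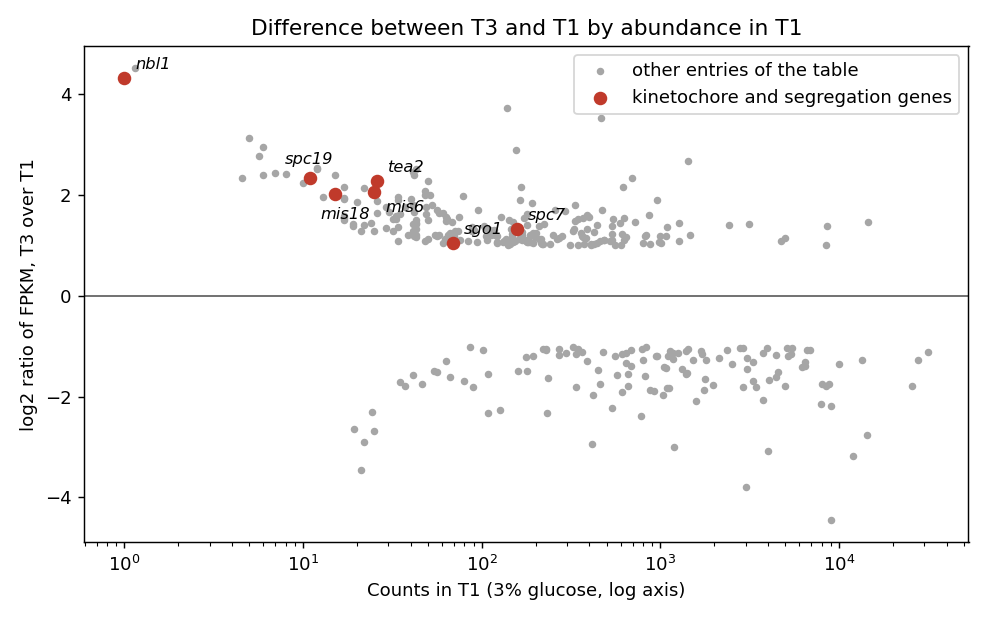
Log2 ratio of T3 over T1 against the counts in T1 on a log axis for 360 genes of the table, with the 7 genes in red. The 7 left out had no counts in a library or fewer than 0.5 in T1. All points lie at log2 ratios beyond 1 or -1, and the genes with fewer than 19.25 counts in T1 are all on the upper side. The 7 genes lie among the grey points, 3 of them (nbl1, spc19 and mis18) at fewer than 19.25 counts.

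In ASM294v3, the RefSeq assembly used for names and neighbours, each of the 7 genes overlaps an annotated gene on the opposite strand. The methods describe no use of strand in counting, and reads of the opposite gene could then be counted for these genes. The annotated span of sgo1 lies wholly (100%) within that of the coding gene txc1, and that of spc19 wholly within a noncoding RNA gene. Of tea2, 98.5% is covered by a noncoding RNA gene on the opposite strand, and of mis18 79.5%. The 3' end of nbl1 overlaps psf2, a gene of DNA replication, over 160 bases or 24.7% of its span. None of these opposite genes was found in the tables, so none has a value here, and their part in the results was not tested. Whether noncoding RNA genes were among the models counted was not examined.

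Of the 22 neighbouring or overlapping genes examined, some of them noncoding RNA genes, pma2 alone was in a table. The tables together hold 444 genes, beside 5124 protein-coding genes in ASM294v3, so few of any such set would be found. It lies next to spc7 on the opposite strand without overlap and encodes a plasma membrane proton ATPase. It had 48, 95 and 207 counts in T1, T2 and T3, or 2.73, 5.25 and 11.6 FPKM. T3 was 4.24-fold above T1 (95% interval 3.09 to 5.93) and 2.21-fold above T2 (1.72 to 2.84), and the interval against T1 did not overlap that of its neighbour spc7 (2.10 to 3.06).

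The gene models behind the values differed from the present annotation. The version of the transcript is the same for 2 of the 7 genes, mis6 (2175 bases) and sgo1 (970 bases). The model of nbl1 (426 bases) and that of spc19 (459 bases) have the coding length only, while the ASM294v3 transcripts have 527 and 478 bases. The spc7 model had 4875 bases against 4372 in the assembly. The same model was used at all concentrations, and a change of its length alters the level of a gene more than its fold. The counts of all 7 genes were whole numbers in every library, which gives no sign that reads were divided with other sequences.

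Against a wider list of 90 genes in 9 groups (chromosome passenger complex, shugoshin and cohesion, CENP-A loading, inner and outer kinetochore, DASH, spindle checkpoint, kinesins, and microtubule plus end with cell end markers), 9 genes were found in the table of T3 and T1, or 10%. The 235 entries higher in T3 correspond to 4.59% of the 5124 protein-coding genes of ASM294v3, and the 132 lower entries to 2.58%. Since the list was drawn up with the 7 genes in it, its share has no separate weight. Apart from the 7, it added mis15 and for3 only, and 81 genes of the list were not in the table. Most groups held a single called gene, and none of the 6 spindle checkpoint genes was found.

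Besides the 7 genes, for3, the formin gene that nucleates actin cables at cell ends, had 395 counts in T3 and 186 in T1, or 12.7 and 6.06 FPKM, a 2.09-fold increase (95% interval 1.75 to 2.50). The inner kinetochore gene mis15, whose product works with Mis6, is represented by 2 models of 1230 bases with fractional counts. One, with 91.83 counts in T3 and 38.75 in T1, was at 2.32 times its T1 level in T3 (1.57 to 3.45). The other had 3.17 in T3 and 19.25 in T1, a log2 ratio of -2.64 (-5.10 to -0.94). Reads were divided between these models, and their sum of 95 counts in T3 and 58 in T1 gives 1.62-fold (1.15 to 2.28).

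In the comparison of T3 with T2, 4 of the 90 list genes were called (4.44%), all higher in T3, beside 181 entries in all, or 3.53% of the protein-coding genes (1.56% higher). These were mis18, mis6 and tea2, described above, and klp6, which encodes a kinesin-8 that shortens microtubules and acts at kinetochores. It had 481 counts in T3 and 226 in T2, or 27.8 and 12.9 FPKM, a 2.16-fold increase (95% interval 1.84 to 2.54). Its partner gene klp5, like most protein-coding genes, was not found in the tables, and klp6 was in no table with T1. None of the 90 list genes was called between T2 and T1, where the 87 entries correspond to 1.70% of the protein-coding genes.

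The mean of log2 FPKM over the 7 genes, taken back to FPKM (a geometric mean), was 14.8 in T3 and 3.23 in T1. The lone count of nbl1 lowers the T1 value. Nearest to it were bro1, mug184 and vps51, by Euclidean distance of log2 FPKM over these 2 libraries among 356 genes. They had 16.0, 13.3 and 14.4 FPKM in T3 and 3.03, 3.41 and 3.74 FPKM in T1. Both bro1 and vps51 encode proteins of vacuolar sorting. Likeness over 2 libraries describes level and fold only.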

How the data were processed

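Reads were filtered by the authors with SOAPnuke and aligned to the genome with BWA and to genes with Bowtie, and expression was estimated with RSEM. The deposited tables hold RSEM expected counts, which the authors did not round, and FPKM values that the authors scaled by gene length and library size. Their genome build was not given in the sources used here. Genes were called by the authors with a Poisson method and NOIseq, and every entry of the tables used is marked significant. The tables of T3 and T1 and of T2 and T1 hold more entries than the study counts as different, and an entry of a table is taken as called here. Columns of ratios, p-values and FDR are the authors' comparisons and were not used. The first sheet of each workbook was used. FPKM values deposited as 0.001 stand for 0 counts and were set to 0.

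Genes were named through ASM294v3 by transcript accession without version (387 of 444 entries) or by the text of the entry (31). The named genes are the 7 genes, other list genes in the tables, annotated neighbours in a table and the 3 nearest genes by level. The genes and lists were chosen with earlier results of these data known. Counts were rounded to whole numbers for intervals. Fragment totals were fitted from counts, FPKM and length. Python 3.11.15, numpy 2.4.6, pandas 2.3.3, scipy 1.17.1 and matplotlib 3.10.9 were used. The alternatives tried were a pseudocount of 1 FPKM, other scalings, a minimum of 10 counts or 10 FPKM, a 4-fold threshold, 99% intervals, intervals wholly beyond 2-fold and the other sheet. A planned search of promoter motifs was not run.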

Additional observations from a re-analysis of the deposited data

How the results depend on the processing

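All 7 genes stayed higher in T3 than in T1 under each alternative scaling and with a pseudocount of 1 FPKM. Scaling by gene-mapped reads or by fitted fragment totals moved no log2 ratio of the 7 genes by more than 0.07, and a pseudocount lowered them by 0.05 to 1.48, most for nbl1. With it 6 of the 7 genes stayed at least 2-fold higher, without sgo1, and the number at least 4-fold higher fell to 2 (nbl1 and spc19), against 5 before. With 99% intervals 4 genes lay wholly above 2-fold instead of 6, without spc7 and mis18, and the interval of mis6 for T2 over T1 included no difference. The counts at 4-fold with a pseudocount and at 99% were chosen after seeing the data. The shares of all genes under these settings are not given here. The median log2 ratio of T3 over T1 was 2.06. With at least 10 counts in the lower library nbl1 dropped out. The number of list entries higher in T3 was 9, and 5 at a log2 ratio of at least 2. The only lower entry, a mis15 model, was lost (0 entries) with at least 10 counts in the lower library, with at least 10 FPKM in the higher library and with an interval wholly beyond 2-fold. No paired analysis was possible because each concentration has 1 library, and no replicate could be left out. Depth limits nbl1 most, since 1 count in T1 is worth 0.48 FPKM.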
